A study of Mus musculus with 7 samples.

Results

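The peaks described here are the strong late G1 peaks of middle width: autosomal peaks of the late G1 ATAC-seq list with a pileup from 100 to 1000 and a width from 1000 to under 3000 bp. ATAC-seq marks DNA that a transposase can reach. The pileup is the depth of sequenced fragments stacked over a peak, averaged along it, and not the number of fragments in it. The rule picked 25788 peaks, called members below, which is 7.15% of the 360498 autosomal late G1 peaks. The members were thus chosen by their late G1 pileup and width, and both values are given only as a description. Their location, their sequence and the early G1 list had no part in the choice.

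The study sorted endothelial cells from retinas of mice at postnatal day 6 carrying the FUCCI reporter, whose fluorescent colours mark stages of the cell cycle. Living cells were kept by propidium iodide, and within these the cells that carried CD31, found on endothelium, and lacked CD45, found on blood cells. The early G1 group had 3 libraries of cells without reporter fluorescence, and the late G1 group had 4 libraries of red cells. Both groups shared tissue, genotype and age. The labels do not say how many mice went into a library. Each group was represented by 1 peak list called on its libraries merged together, from 137191808 early G1 fragments and 124693948 late G1 fragments, so no spread between libraries can be given and no difference between the groups was tested. Intervals below are 95% exact binomial intervals unless named otherwise, and they cover counting error only.

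Open chromatin in a cell type is expected at gene promoters and at distal enhancers, where transcription factors hold nucleosomes away. In endothelial cells ETS factors such as ERG, SOX factors of the SOXF group and FOX factors bind such sites, and AP-1 factors bind many sites that open on stimulation. G1 is the stage in which a cell decides whether to copy its DNA. In the retina of a mouse pup the vessel network is still growing, with arteries, veins and sprouting tip cells forming together.

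To show what kinds of sequence the members cover, the central 200 bp of 8 of them are printed from the plus strand of mm10, as RefSeq gives that build. The first set is from members centred within 1 kb of a start site, at Nrp2 (chr1:62703242-62703441), Aplnr (chr2:85136936-85137135) and Ywhaz (chr15:36793323-36793522). Capitals there mark matches to GGGCGG, the core letters bound by SP and KLF factors, or to ACAATGG, the letters of a SOX site, on either strand. The second set is of strong members away from promoters, each named by its nearest gene. Slc15a5 (chr6:137942179-137942378) was the strongest member with an ordinary early pileup, and Actr2 (chr11:20038275-20038474) was the strongest that met no early peak. Polr3k (chr2:181918003-181918202), Myl12b (chr17:70963115-70963314) and Txndc11 (chr16:11143627-11143826) were strong in both lists. Capitals in the second set mark bases that the reference masks as repeats.
Nrp2: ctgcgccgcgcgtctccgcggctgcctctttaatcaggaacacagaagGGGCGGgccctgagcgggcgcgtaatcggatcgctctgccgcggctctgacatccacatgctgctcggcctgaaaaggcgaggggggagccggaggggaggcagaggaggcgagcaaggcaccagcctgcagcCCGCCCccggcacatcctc
Aplnr: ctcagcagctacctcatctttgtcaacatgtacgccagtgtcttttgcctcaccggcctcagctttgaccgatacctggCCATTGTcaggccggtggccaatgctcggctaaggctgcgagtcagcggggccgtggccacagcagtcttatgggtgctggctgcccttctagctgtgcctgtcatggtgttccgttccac
Ywhaz: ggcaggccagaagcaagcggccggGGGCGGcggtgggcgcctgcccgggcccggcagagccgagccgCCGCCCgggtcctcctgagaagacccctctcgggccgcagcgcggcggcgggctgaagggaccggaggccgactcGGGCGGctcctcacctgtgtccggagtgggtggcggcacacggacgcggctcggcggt
Slc15a5: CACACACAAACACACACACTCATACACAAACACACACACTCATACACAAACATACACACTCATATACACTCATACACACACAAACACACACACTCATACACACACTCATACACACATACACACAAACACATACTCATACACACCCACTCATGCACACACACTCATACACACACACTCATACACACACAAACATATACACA
Actr2: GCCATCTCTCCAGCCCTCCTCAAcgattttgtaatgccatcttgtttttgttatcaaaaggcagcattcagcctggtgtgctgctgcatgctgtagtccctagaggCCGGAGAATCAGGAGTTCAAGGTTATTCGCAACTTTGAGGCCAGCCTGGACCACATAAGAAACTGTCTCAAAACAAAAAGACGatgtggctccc
Polr3k: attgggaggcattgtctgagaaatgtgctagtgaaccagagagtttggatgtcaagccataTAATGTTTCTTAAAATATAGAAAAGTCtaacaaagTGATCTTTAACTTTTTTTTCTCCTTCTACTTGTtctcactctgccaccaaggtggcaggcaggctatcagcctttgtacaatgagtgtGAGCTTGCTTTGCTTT
Myl12b: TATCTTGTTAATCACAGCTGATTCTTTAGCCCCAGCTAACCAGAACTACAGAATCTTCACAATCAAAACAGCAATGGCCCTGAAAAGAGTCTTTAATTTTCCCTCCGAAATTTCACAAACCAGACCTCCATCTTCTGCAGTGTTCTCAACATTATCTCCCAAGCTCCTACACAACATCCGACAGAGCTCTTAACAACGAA
Txndc11: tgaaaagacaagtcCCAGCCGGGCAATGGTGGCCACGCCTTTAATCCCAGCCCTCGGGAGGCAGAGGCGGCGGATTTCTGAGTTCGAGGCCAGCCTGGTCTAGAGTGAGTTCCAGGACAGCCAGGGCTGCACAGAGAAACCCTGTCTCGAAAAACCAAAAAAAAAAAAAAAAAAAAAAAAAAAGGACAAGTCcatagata

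The Nrp2 and Ywhaz windows were GC-rich, at 69.5% and 79.0%, and each held more than 1 GGGCGG match. The Aplnr window had a GC content of 59.0% and 1 SOX-type match. That member was centred inside the Aplnr gene, and the promoter class took precedence over coding exons. Read from its first base, the window holds no stop codon, so the match may lie in coding sequence. The Slc15a5 window was masked over all 200 bp, and 86.5% of its bases were A or C in short repeated units. The Myl12b window was also masked throughout. That member had a median of 224 copies in the genome, counted as exact matches of 10 evenly spaced words of 31 bases. Masking covered 178 of 200 bases at Txndc11, 106 at Actr2 and 76 at Polr3k.

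Most members stood only a little above the lower limit of pileup. Their median pileup was 132, with 5% below 102 and 5% above 230, and 23169 of them (89.8%) were under 200. The highest reached 958, but only 245 members had 300 or more and only 14 had more than 500. Widths were also toward the lower limit, with a median of 1396 bp, and 15227 members (59.0%) were narrower than 1500 bp. The fold enrichment, the authors' ratio of pileup to local background, had a median of 8.08 and ran from 1.24 to 27.6. The limits did not fall in a gap in the distribution: 5733 late peaks of the same width had a pileup from 90 to under 100, with a median fold of 6.76, and 4948 members lay from 100 to under 110, with a median fold of 7.1. Members of 1000 to under 1100 bp numbered 3742, beside 4019 peaks of 900 to under 1000 bp with a pileup in the same range.

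**Figure D1:**
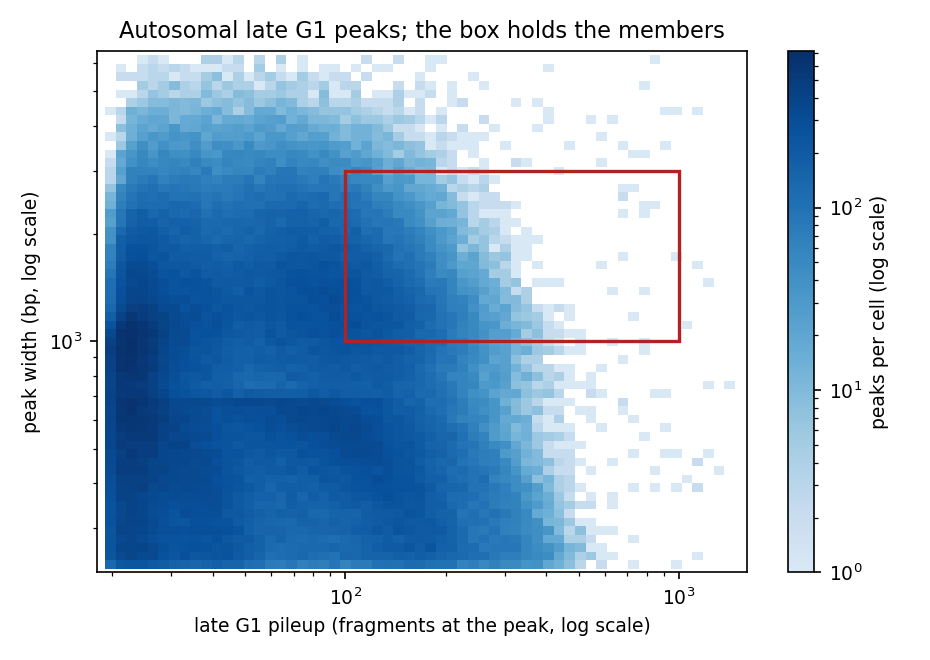
Width in bp (y axis, log scale) against late G1 pileup (x axis, log scale) for the autosomal late G1 peaks; shading is the number of peaks per cell, the red box is the range of the members, and 108 peaks beyond the axes are not drawn. The cloud runs through the lower and left sides of the box without a gap, and few of the 25788 members lie to the right of a pileup of 300.

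The 5 members at the lower limit had a pileup of 100 and were nearest to Fmo9, Frk, Ufl1, Rassf10 and Phlda1, with folds from 5.06 to 8.29. The 5 peaks just outside had a pileup of 99.99 and were nearest to Hbp1, Ncapg2, Irx2, Rpp30 and Olfr510, with folds from 4.56 to 8.67. On either side of the limit the early pileups were of one range: 21.6 to 31 at the 4 members that met an early peak, and 22.8 to 29.6 at the 5 peaks outside.

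The same limits applied to the early G1 list gave 133 of 575882 autosomal peaks (0.0231%), although that list held 260294 peaks of 1000 to under 3000 bp and came from slightly more fragments. In the late list 22.0% of the peaks of that width were members. Of the 133 early peaks, 121 overlapped a late peak and 50 overlapped a member. Late peaks cover 13.9% of the sequenced autosomal bases and members 1.64%. The shares over all early peaks are not given, so these counts are not read as particular to the 133. The pileups of the lists were not scaled to each other. The number of times a fragment was duplicated is not recorded in the lists, which kept all duplicates, and its part in the difference between the lists was not tested.

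Members were spread along all autosomes at a similar density. There were 10.8 members per Mb of sequenced DNA over all autosomes, from 10.1 on chromosome 3 to 11.6 on chromosome 4. Of 2376 windows of 1 Mb, each at least 90% sequenced, none was without a member, and the median window held 10. The variance of the count over its mean was 1.33, where a value of 1 is that of points scattered at random. The median gap to the next member was 61.9 kb. A few windows stood out, and the 3 fullest were at families of repeated genes: 45 members on chromosome 1 between 85 and 86 Mb at the Sp110, Sp100 and Sp140 genes, 30 on chromosome 8 between 20 and 21 Mb at Gm15319, Gm21119 and beta-defensin genes, and 28 on chromosome 4 between 147 and 148 Mb at zinc finger genes such as Zfp534 and Zfp978. The fourth window, with 27, was on chromosome 11 between 113 and 114 Mb, at Sdk2, Slc39a11 and Sox9, where the median number of copies was 1.

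Location was read at the centre of each peak from GENCODE M21 on mm10, with promoters (up to 1 kb on either side of a protein-coding start site) taking precedence, then coding exon, UTR, intron, lncRNA gene and intergenic. Nearly all members lay away from promoters: 12627 (49.0%) were intergenic and 9967 (38.6%) were in introns of protein-coding genes. A further 1675 (6.50%) lay in lncRNA genes, 363 (1.41%) in coding exons and 296 (1.15%) in UTRs. Only 860 were at a promoter, which is 3.33% (interval 3.12 to 3.56%). That share was 3.65% over all autosomal late peaks. Among the 91326 weaker late peaks of the same width range, with a pileup under 100, it was 4.78% (interval 4.64 to 4.92%), so the members' interval lay below theirs. Promoters make up 2.57% of sequenced autosomal bases, so member centres fell there 1.30 times as often as their share of the genome, and centres of the weaker peaks 1.86 times.

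The other classes differed little from their share of the genome. Introns hold 37.0% of the bases and intergenic DNA 51.8%, so members were 1.04 times and 0.944 times as frequent there. Coding exons were at 1.20 times and UTRs at 0.885 times. For the weaker peaks the intron ratio was 0.999 and the coding exon ratio 1.17. The promoter share did not rise with pileup: it was 5.06% of peaks of the same width under a pileup of 30, 5.74% from 30 to 50, 3.42% from 70 to 100, 3.19% from 100 to 130 and 3.29% from 200 to 300. From 300 up it was 4.90%, with an interval of 2.56 to 8.40% that holds the values of every other bin. The choice on pileup therefore took peaks with a lower promoter share than those at the bottom of the list.

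**Figure D2:**
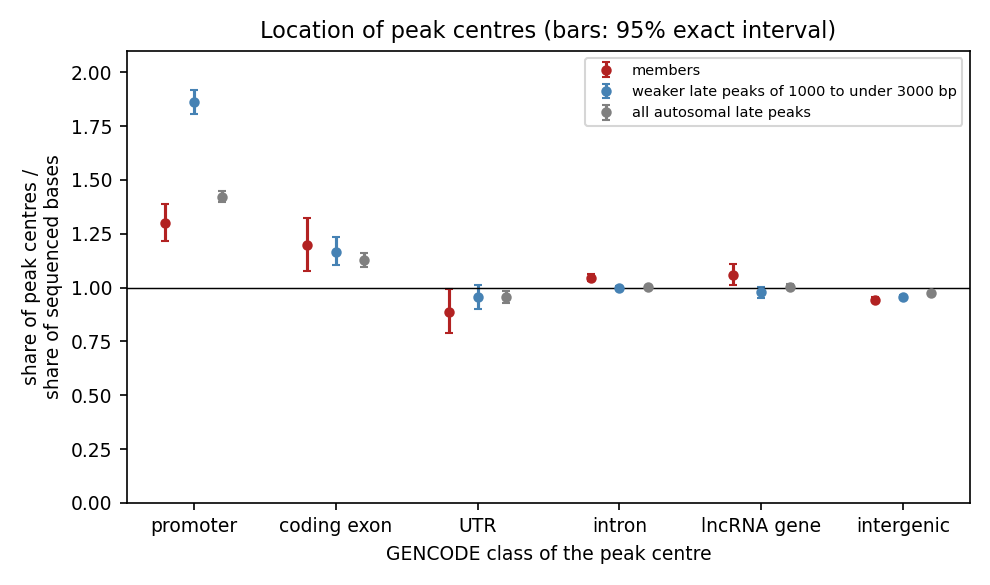
Share of peak centres in each GENCODE class divided by the share of sequenced autosomal bases in that class (y axis), for members, weaker late peaks of the same width and all autosomal late peaks; bars are 95% exact intervals and the line at 1 marks the genome. Promoters stand highest in all 3 sets, at 1.30 for members and 1.86 for the weaker peaks, and the remaining classes lie between 0.885 and 1.20.

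Distance to genes gave the same flat picture. A protein-coding start site lay within 100 kb of 16437 members (63.7%, interval 63.1 to 64.3%), and 36.3% of the members were farther away, beside 38.7% of sequenced bases. Between 1 and 5 kb from a start site lay 8.33% of the members and 8.07% of the bases. Between 10 and 50 kb lay 30.1% of the members and 29.2% of the bases. Only the band up to 1 kb departed from the genome by more than 1.10 times.

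Members were nearest, within 100 kb, to 9197 of the 20693 protein-coding genes with a start site, which is 44.4%. Of these genes 1738 had at least 3 members and 21 had at least 10. Several genes with many members were long ones. Bnc2, a zinc finger gene, had 14 members over 529 kb of sequence nearest to its start sites, with pileups from 101 to 273. At the mean density of 11.2 members per Mb, 5.92 would lie there. Fggy, a carbohydrate kinase gene, had 13 where 4.89 would lie. Syne1, which encodes a linker of nucleus and cytoskeleton, had 12 where 4.30 would lie. The members at these 3 genes had a median of 1 copy in the genome, and 10, 10 and 12 of them, in that order, overlapped an early peak. By contrast C130026I21Rik, beside Sp110, had 12 members with a median of 4 copies where 1.84 would lie, and Gm21119 had 12 with a median of 11.2 copies where 2.21 would lie. These genes were named because of their counts, so no test is given.

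At the 860 promoter members the DNA was GC-rich, with a median of 50.9% beside 43.3% over all members, and 21% of them were CpG-rich (GC over 50% and an observed to expected CpG ratio over 0.6) beside 0.857% of all members. The promoter members of highest pileup belonged to genes of many functions. Those of the centrosome gene Sfi1 are described with the peaks strong in both lists. Asprv1, a protease gene of the skin, had a pileup of 364 with a fold of 22.0, and the early peak there had 37.0. Zfp523, a zinc finger gene, had 351 with an early pileup of 25.2. Ido1, which encodes an enzyme that breaks down tryptophan, had 346 beside 30.6. Papola, a poly(A) polymerase gene, had 343 beside 28.0. None of the 4 early values was outside the usual range of the early list. These 4 were picked for high late pileup, and the lists are not scaled to each other. That each late value is above its early one therefore follows from the choice, and a change between the groups was not tested.

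Other promoter members of this group met no early peak. An early peak was met by 768 of the 860 promoter members (89.3%), beside 91.2% of the weaker peaks at promoters and 81.4% of all members. Lacking one is therefore not particular to the genes named here. Atrip, whose product works with the DNA damage kinase ATR, had a late pileup of 341. Slc5a7, the choline transporter gene, had 302, and Aplnr, the apelin receptor of venous and sprouting endothelium, had 302. Their folds were 12.2, 19.8 and 10.7. Among the rest, Wnk1, a kinase gene of ion transport, had 333 with an early pileup of 24.8, Chil1, a chitinase-like gene, 304 with 32, and Whrn, a scaffold gene of photoreceptors and hair cells, 302 with 35.4. Gdf6, a BMP-family ligand gene, had 301 with 28.1, Usp14, a deubiquitinase gene of the proteasome, 295 with 29.7, and B230118H07Rik 280 with 37.6. Hjurp, a chaperone gene of centromeric histone, was the exception with 280 beside an early pileup of 119. In all, 848 genes (4.10%) were nearest to a member centred within 1 kb.

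The genes of endothelial and retinal function were read from 14 lists. Of the 18 pan-endothelial genes, 8 (44.4%, the same as the 44.4% over all genes) had at least 1 member nearest within 100 kb. A member at a promoter was found for 2 of the 18, beside 4.10% of all genes. Erg, the ETS factor of endothelial identity, had a promoter member of pileup 171 (chr16:95458916-95460785, 1870 bp) with an early pileup of 27.3. Egfl7, a secreted protein gene of endothelium, had one of 132 (chr2:26585668-26587273) with an early pileup of 27.8. Cldn5, the tight junction claudin of the blood-retina barrier, had a member of 114 at 1832 bp from its start site. Counting late peaks of any size, 9 of the 18 genes had one centred within 1 kb of a start site, beside 57.9% of all protein-coding genes, and 14 had an early peak, beside 69.0%.

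Arterial genes had a member nearest in 11 of 14 (78.6%) and venous genes in 6 of 9 (66.7%), beside the 44.4% over all genes. These shares do not allow for gene length, and the densities given after the lists do. Gja4, the arterial connexin gene, had a member of pileup 255 in its UTR (chr4:127310890-127312472) with an early pileup of 37.8. Cxcr4, a chemokine receptor gene of arteries and tip cells, had one of 172 in its intron with 28.7. Dll4, the Notch ligand of tip cells and arteries, had one of 143 at 6124 bp from its start site with no early peak. None of the 20 arterial members was at a promoter, where 3.33% of all members lay, so a list of this size would usually hold few or none. On the venous side the promoters of Nrp2, a co-receptor for VEGF-C (pileup 195, early 29.2), and of Aplnr held members, and Emcn, an endothelial sialomucin gene, had one of 102 at 2091 bp. Arterial and venous members had similar pileups, with medians of 138 and 132.

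Tip cell genes had members in 9 of 11 (81.8%, beside 44.4%). The closest to a start site were those of Igfbp3, a binding protein of insulin-like growth factors. They had 284 at 1942 bp and 224 in its intron, beside early pileups of 29.7 and 33.7. Plaur, the urokinase receptor gene, had 119 in an intron. Among Notch pathway genes 16 of 20 had a member (80%, beside 44.4%). The target gene Hes5 had 120 in its UTR with an early pileup of 46.8, and Mfng, which encodes a glycosyltransferase acting on Notch, had 135 in its intron with 43.7. The TGF-beta and BMP pathway had 40 members at 17 of 24 genes (70.8%, beside 44.4%). Its closest to start sites were at Bmp4, a ligand, with 151 and no early peak, and 2 at Smad4, the shared signal carrier, with 106 and 101.

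Cell cycle genes of G1 to S had members in 12 of 26 (46.2%, beside 44.4%). None of these 21 members was at a promoter, where 3.33% of all members lay. E2f2 and E2f1, transcription factors that switch on replication genes, had 122 in an intron and 104 in a coding exon. Ccnd3, a D-type cyclin gene, had 131 in an intron. The early pileups there were 37.4, 29.8 and 32.8. Among AP-1 and immediate early genes 9 of 16 had a member (56.2%, beside 44.4%). Nr4a2, an orphan nuclear receptor gene, had one at its promoter with 147, beside 31.1 in early G1, and Ier2 and Egr1 had 152 and 126 at 2703 and 2886 bp.

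Genes of cells that the sort should not hold were read beside the same 44.4% over all genes. Blood and microglia genes had members in 5 of 12 (41.7%) and photoreceptor genes in 6 of 11 (54.5%), both near that share. Retinal progenitor and Muller glia genes had them in 8 of 12 (66.7%), retinal neuron genes in 10 of 14 (71.4%) and pericyte and smooth muscle genes in 8 of 10 (80%). Otx2, a photoreceptor factor, had a promoter member of 128 with no early peak, and Tfap2a, an amacrine cell factor, one of 115. Sox9, a factor of Muller glia, had 107 at 6912 bp. Ptprc, which encodes CD45, had 110 in an intron, and Spi1, a myeloid factor, 215. Of the housekeeping genes 6 of 14 (42.9%) had a member, among them Ywhaz with 170 at its promoter and Actb with 215 at 4298 bp.

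Because long genes collect more peaks, the lists were also compared by density. Over all protein-coding genes there were 11.2 members per Mb of sequence within 100 kb and nearest. Pan-endothelial genes had 10.7 per Mb (exact Poisson interval 6.45 to 16.7) and retinal neuron genes 10.6 (6.16 to 16.9). Arterial genes had 11.9, venous genes 10.6, tip cell genes 16.5 (9.79 to 26.1), Notch genes 14.4, TGF-beta and BMP genes 15 (10.7 to 20.4), and blood genes 14.0. The highest density was that of housekeeping genes, 17.9 (8.16 to 33.9), and pericyte and smooth muscle genes had 16.5 (7.92 to 30.4). The interval of each of the 14 lists held the mean over all genes. At these counts no list could be told apart from the genome at large, and endothelial lists could not be told apart from lists of other cells.

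**Figure D3:**
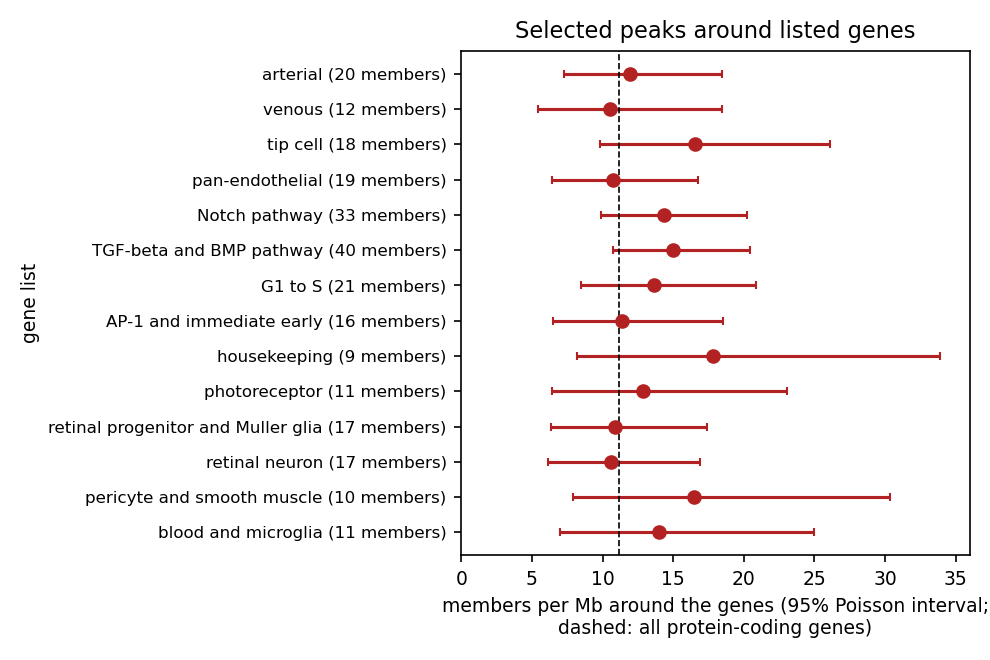
Members per Mb of sequence nearest to the genes of each of 14 lists (x axis), with 95% exact Poisson intervals; the number of members is beside each list name, and the dashed line is the density of 11.2 per Mb around all protein-coding genes. Every interval crosses the dashed line.

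Of the 25788 members, 20980 overlapped an early G1 peak by at least 1 bp, which is 81.4% (interval 80.9 to 81.8%). Over all autosomal late peaks, which are narrower, the share was 68.3%, and over the weaker peaks of the same width range it was 82.0% (81.8 to 82.3%). The early list covers 43.1% of the sequenced autosomes, so wide peaks meet it often by position alone. When all peaks were shifted together along each chromosome, 100 times by random distances, 75.4% ± 0.286 (SD over shifts) of the members met an early peak, so the share as deposited was 1.08 times that level. The weaker peaks gave 76.1% ± 0.151 after shifting and also a ratio of 1.08. By bases, 49.7% of the members' sequence lay under early peaks, beside 43.0% ± 0.257 after shifting.

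Pileup had little bearing on this overlap. It was 82.1% for members from 100 to 130, 81.3% from 130 to 160, 80.2% from 160 to 200, 80.4% from 200 to 300 and 77.1% from 300 up. The shifted level fell alongside, from 76.1% to 71.5%, since stronger members were narrower, with a median width of 1454 bp in the lowest bin and 1177 bp in the highest. The ratio to the shifted level stayed between 1.07 and 1.09 in all 9 bins of pileup, weaker peaks included. Width mattered more: 75% of members under 1200 bp overlapped an early peak, and 91.4% of those of 2000 bp or more. Weaker peaks of these widths gave 74.8% and 91.2%.

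**Figure D4:**
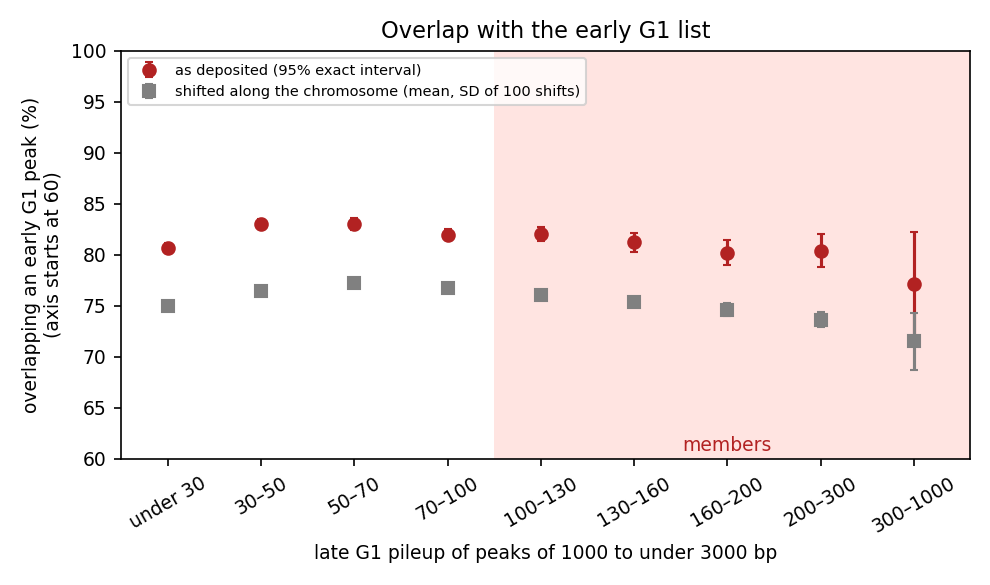
Share of late G1 peaks of 1000 to under 3000 bp that overlap an early G1 peak (y axis, in percent, starting at 60) by late G1 pileup (x axis), as deposited with 95% exact intervals (circles) and after 100 shifts along the chromosomes with the mean and SD (squares); the shaded bins hold the members. The circles lie between 77.1% and 83.1% and the squares follow them at a lower level in every bin.

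Base composition of the members went with the early list. Only 67.1% of members with a GC content under 38% overlapped an early peak, beside 78.9% from 38 to 42%, 83.7% from 42 to 46%, 87.4% from 46 to 50% and 89.5% from 50% up. The weaker peaks gave 66.6% in the lowest class and 90.4% in the highest. The early pileup of overlapped members rose along the same classes from a median of 25.9 to 31.7. The late pileup of all members in these classes had medians from 131 to 133. Across the 20980 overlapped members, which share both pools, Spearman's rho of early pileup with GC was 0.34, and across all members that of late pileup with GC was -0.02. The rule limited the late pileup and not the early one, so these late and early values cannot be set against each other. The shifts do not keep GC content, and its part in the overlap above the shifted level was not tested. By location the overlap was highest at promoters, 89.3% (interval 87.0 to 91.3%), and 80.6% in intergenic DNA.

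Where members met an early peak, that peak was of ordinary height for the early list. Taking the early peak of longest overlap, the median early pileup was 28.1, with 5% below 21.7 and 5% above 39.6. The median of the whole early list was 26.9, and the members' median stood at percentile 59.9 of that list. For the weaker late peaks it was 27.9. The early fold enrichment was also the usual one, with a median of 2.09 both under the members and over the whole list. Early peaks under members had a median width of 2233 bp, beside 1363 bp over the whole early list. Wide early peaks are met more often by position alone, and the choice of longest overlap also favours them. The greater width is therefore not read as a trait of the members. Within the late range that the rule allowed, late and early pileup were almost unrelated across the 20980 pairs, with a Spearman's rho of 0.02.

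Members without an early peak numbered 4808 (18.6%). The share was close to that of the weaker peaks of the same width, since 81.4% of the members and 82.0% of those peaks met one, beside 68.3% of all autosomal late peaks. The 5 with the highest pileup had 385 to 404 and lay near Actr2, Kcnip4, Klf6, Brd1 and Agtr1b, at 44498 to 549308 bp from the start site. The Kcnip4 peak was in an intron of this gene of a potassium channel partner, and the other 4 were intergenic. Their folds ran from 13.1 to 20.9, and all 5 had 1 copy in the genome. Those near Kcnip4 and Klf6 were poor in GC, at 29.0% and 31%, and the remaining 3 had 42.1 to 48.8%.

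A small set departed from this pattern by being strong in both lists. An early pileup of at least 100 was met by 122 members (0.473%, interval 0.393 to 0.565%) and by 28 of the weaker peaks (0.0307%, interval 0.0204 to 0.0443%). All 14 members with a late pileup over 500 were among the 122, with early pileups from 547 to 1026. In the 122 the late pileup had a median of 199 and the early one of 153, and their ratio ran from 0.304 to 3.01 with a median of 1.15. The late value was the higher in 80 of them. The lists are not scaled to each other and each pileup is averaged along its own peak. Neither group is therefore read as the more open.

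These 122 differed from the other 25666 members in what surrounds them. Their fold had a median of 2.99 beside 8.09, and 61 of them had a fold under 3, beside 49 (0.191%) of the others. A low fold with a high pileup means that the neighbourhood was covered too: pileup divided by fold had a median of 62.5 beside 17. Copies of the sequence were common, with 2 or more copies in 67 of 122 (54.9%, interval 45.7 to 63.9%) and in 8.44% of the others. Which copy a fragment came from is uncertain at such peaks. Promoters made up 11 of the 122 (9.02%, interval 4.59 to 15.6%) and 3.31% of the others (3.09 to 3.53%).

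Many of the 122 came in runs. On chromosome 1 between 84962682 and 85634531, at Sp110 and Sp140, which encode nuclear body proteins, 45 members had pileups from 100 to 356 over early pileups from 32.8 to 263, and 32 of them reached 100 in early G1. Their median fold was 2.65 and their median number of copies 4. Further along at Ugt1a1, a glucuronidation enzyme gene, and Hjurp, all 7 members between 88210039 and 88285316 were strong in early G1, from 107 to 155, with a median of 1 copy. At Pdia4, a protein disulphide isomerase gene, on chromosome 6, 6 of 9 members reached an early pileup of 100, with a median of 16 copies. Among the zinc finger genes of chromosome 4 between 146050185 and 147468455 it was 8 of 34, and around Gm15319 on chromosome 8 it was 4 of 21.

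The run at Sfi1, a centrin-binding gene of the centrosome, held the highest values. Its 8 members between 3121797 and 3191895 of chromosome 11 had pileups from 308 to 783, with a median of 677, and early pileups from 215 to 814, with a median of 610. Several lay under the same early peak, so these early values are not independent. The median fold was 1.58, and the promoter member had a pileup of 598 at a fold of only 1.24, beside an early pileup of 585. The median number of copies in mm10 was 1. The 7 strongest of the 8 had folds from 1.24 to 1.71, so their pileups were close to those of the sequence around them.

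Peaks outside these runs made up the remainder of the top. The strongest member of all, with 958 beside 968 in early G1, lay intergenic near Vmn1r238, a vomeronasal receptor gene, at 117755 bp (chromosome 18). The next, near Polr3k, a gene of an RNA polymerase III subunit (chr2:181916908-181919299), had 852 beside 863. Near Trpm1, the channel gene of retinal bipolar cells, a peak (chr7:64078430-64080888) had 781 beside 547. The peak in Zc3h7a nearest to Txndc11 (chr16:11143139-11144315) had 756 and the highest early value, 1026, with folds of 12.4 and 15.6. That near Myl12b, a myosin light chain gene (chr17:70962531-70963899), had 776 with a fold of 15.2 beside 586, with a median of 224 copies. The ones in E030030I06Rik and near Vmn1r2 had 643 and 689 beside 734 and 663. Late folds were 3.45 near Vmn1r238, 4.99 near Polr3k, 2.89 near Trpm1, 2.30 near Vmn1r2 and 7.09 in E030030I06Rik. Where the fold was low, the neighbourhood was covered too. Next below these peaks in late pileup came the one near Slc15a5 (chr6:137941766-137942792), with 488 beside only 24.8. It was the strongest of the members whose early peak was ordinary.

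Some members had a higher pileup in the early list than in the late list. Each pileup is averaged along its own peak and the lists are not scaled to each other. A change between the groups is therefore not read from these values. Among the 5 members of highest early pileup, the one near Cr2, a complement receptor gene, had 466 in late and 917 in early G1 (chr1:195241568-195242812). At the promoter of Rps29, a ribosomal protein gene singled out after its values were seen, the pileup was 200 in late and 591 in early G1. The early peak met only 340 of the 1245 bp of the member near Cr2, and 440 of 1415 bp at Rps29. The early fold there was 14.0 and the late fold 6.90.

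**Figure D5:**
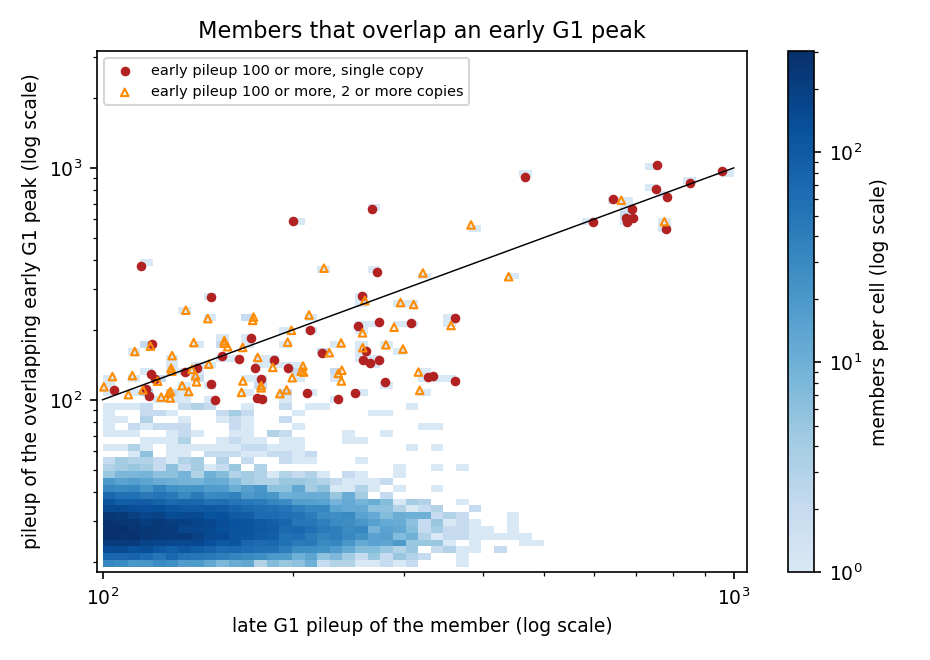
Pileup of the overlapping early G1 peak (y axis, log scale) against the member's late G1 pileup (x axis, log scale) for the 20980 members that met an early peak; shading is members per cell, symbols are the 122 members with an early pileup of 100 or more by number of copies in the genome, and the line marks equal pileup. The mass of members lies flat near an early pileup of 28.1 whatever the late pileup, and the 14 members over 500 lie near the line.

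In sequence the members were close to the weaker peaks of the same width. Median GC was 43.3% beside 43.9%, and 41.9% over the sequenced autosomes. Masked repeats made up a median of 23.4% of a member and 24.1% of a weaker peak, beside 33.5% of the autosomes. Members with 2 or more copies in the genome were fewer, 8.66% (interval 8.32 to 9.01%) beside 12.5% (12.3 to 12.7%). CpG-rich members were fewer too, 0.857% beside 2.12%. Only 1 member had a match to the mitochondrial genome among its 10 evenly spaced words of 31 bases. The sequence between these words was not searched.

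Short letter patterns of known factors were counted in the central 200 bp, on both strands, beside 47917 windows of 200 bp taken every 50 kb of the autosomes. TGANTCA, the AP-1 pattern, was in 5.73% of the members, 5.73% of the weaker peaks and 6.01% of the windows. ACAATGG for SOX factors was in 3.42%, 3.58% and 3.64%. GTAAACA for FOX factors was in 2.85%, 2.77% and 3.09%, and AACCACA for RUNX factors in 4.53%, 4.59% and 4.70%. For these 4 patterns no share in the members was above that of the windows.

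Of the GC-rich patterns, GGGCGG was more frequent in the members than in the windows. This pattern, bound by SP and KLF factors, was in 2.32% of the members (interval 2.13 to 2.51%), 3.27% of the weaker peaks and 2.0% of the windows (1.87 to 2.13%). Of the 597 members with it, 120 were among the 860 promoter members, where its share was 14.0%. The share in members away from promoters is not given, so the excess over the windows is not read as theirs. CCGGAAGT, a strong ETS pattern, was in 43 members (0.167%, interval 0.121 to 0.225%) and 0.121% of the windows (0.0919 to 0.156%), so those intervals overlapped. Among promoter members it was in 6 of 860, or 0.698%. These are counts of letters, and say nothing on whether a factor was bound.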

How the data were processed

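ATAC-seq of 7 libraries, 3 early G1 and 4 late G1, was deposited as 1 peak list per group. Trimmomatic, STAR, bedtools and MACS2 on mm10 were used, per the submitters' processing notes. The peak caller was MACS2 2.2.7.1 in broad mode, run by the authors per the file headers on the merged fragments of a group, with no control, all duplicates kept, q-value cutoffs of 0.05 and 0.1 and a local background over 10000 bp. Keeping duplicates lets copies of 1 fragment raise a pileup. The deposited signal of a peak is its pileup, not scaled to depth. The deposited fold is the ratio of pileup to local background. The deposited −log10 q-value was used only to split the lists by rank.

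Members were the autosomal late peaks within the limits, and start positions were counted from 1. The members, gene lists and letter patterns were chosen with earlier results of these data known. Named peaks were those of highest and lowest pileup, of highest early pileup, and those nearest to listed genes. Of genes with at least 3 members nearest, a few with many are named, and 1 that the rule names is not reported here. Shifts kept peaks within the sequenced span of each chromosome and were at least 1 Mb. Interval, distance and copy-counting code was checked on simulated data against direct enumeration, with 0 wrong results. With 1 list per group, no test was possible. The alternatives were stricter limits, other overlap and promoter definitions, merged neighbours, and peaks with few repeats or 1 copy. Python, NumPy, pandas, SciPy and numba were used.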

Additional observations from a re-analysis of the deposited data

How the results depend on the processing

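The share of members meeting an early peak, 81.4%, depended most on the definition of overlap. It was 47.7% with at least 50% of the member covered, 49.9% with the centre inside an early peak, 46.9% with the upper part of the early list by q-value and 19.9% with a reciprocal overlap of 50%, and the weaker peaks gave 47.4%, 49.9%, 46.6% and 21.1%. It was 79.9% from a pileup of 150, 79.5% and 91.4% for widths below and from 2000 bp, 81.8% under 50% masking and 82.7% with members within 10 kb joined. The promoter share, 3.33%, was 7.66% within 3 kb, 5.05% for any overlap with the 1 kb window, 3.67% with neighbours joined, 3.62% from 2000 bp and 3.89% under 50% masking. For the weaker peaks it was 9.01% within 3 kb, 6.54% for any overlap and 5.82% under 50% masking, above the members each time. The median early pileup, 28.1, was 28.2 with the highest overlapping peak, 27.9 with reciprocal overlap, 28.3 from a pileup of 150 and 28.3 under 50% masking. The number of members was 8626 from a pileup of 150. Of all 25788 members, 74.7% lay within 100 kb of a gene body, beside 63.7% within 100 kb of a start site. Keeping only members with 1 copy in the genome, chosen after seeing the data, gave 81.4%, 3.5% and 28.1 for the shares and median. No paired analysis was possible because each group has 1 merged list. Leaving out a library was not possible for the same reason. Depth per library is unknown here.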

Other observations

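Outside the autosomes, 707 peaks on chromosome X and 43 on chromosome Y met the same limits of pileup and width in the late list, and none on the mitochondrial genome did.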
